A study of Caenorhabditis elegans with 4 samples.

Results

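Wnt proteins are secreted signals, and Frizzled proteins are the membrane receptors that bind them. This set holds the 5 Wnt genes of the nematode Caenorhabditis elegans (egl-20, lin-44, cwn-1, cwn-2 and mom-2) and its 4 Frizzled genes (mig-1, lin-17, mom-5 and cfz-2). Members were taken by gene symbol among array probes that name exactly 1 gene. Of the 9 genes, 6 were measured, 4 ligands (egl-20, cwn-1, cwn-2 and mom-2) and 2 receptors (mom-5 and cfz-2), out of 14901 named genes tested. The genes lin-44, mig-1 and lin-17 were not analysed here. RNA of wild-type worms at L4, the last larval stage, from 4 preparations was set against a wild-type mixed reference on 4 arrays with 2 channels. L4 RNA was in channel 2 and the reference in channel 1. Of the worms, the labels give only genotype and stage. The array titles also hold a letter code, shared by preparations 1 and 4, and a date-like field that differs between arrays. The meaning of these is not given. The make-up of the reference, the strain, the sex and any separate culturing of the preparations are not stated in the labels, so the p-values measure only the spread between these 4 samples, which may be technical.

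In worms, as in other animals, a Wnt that binds a Frizzled acts through Dishevelled proteins. In the canonical branch a destruction complex of Axin, APC and kinases is then held back, and a beta-catenin reaches a TCF transcription factor at target genes. The worm also uses an asymmetry branch, in which the beta-catenins WRM-1 and SYS-1 and the kinase LIT-1 set the balance of the TCF protein POP-1 between daughter cells. Worm Wnts are known for orienting cell divisions, guiding migrating neuroblasts and axons along the body, patterning the vulva and, in the early embryo, inducing endoderm.

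All values are log2 ratios with the array's median over its probes subtracted. The direction of the deposited ratio is not stated. A negative value is called likely lower in L4 than in the reference, because in the labels the arrays pair L4 with the reference in that order. By channel number the reference comes first, so this direction is an assumption. The words "lower" and "higher" carry that limit throughout. Arrays gave values for 21084 to 21489 of 21632 probes, and the SD over probes ran from 0.85 to 1.21. Lists of stage and tissue markers were counted by the mean of each gene over the 4 arrays. By that count 16 of 17 sperm genes and 5 of 6 adult cuticle collagen genes were higher. Higher too were 11 of 12 body wall muscle genes and 6 of 11 intestinal genes. Lower were 7 of 14 neuronal genes and 6 of 12 oocyte and yolk genes. The medians of the oocyte and yolk list and of the epidermal list changed sign between arrays. Of the epidermal and the early embryo markers, 1 of 10 was lower in each list and 0 were higher, with 2 and 0 higher at an unadjusted p under 0.05 in limma. Worms were measured whole, so fewer cells of a type and less RNA per cell cannot be told apart. A gene was called when its mean over arrays differed from 0 at an adjusted p under 0.05 in limma, a linear model fitted to all probes and genes together.

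All 6 measured genes had a mean ratio below 0, and 1 of them was called. That gene, the Frizzled receptor cfz-2, was lower in L4 at a mean of -1.33. The other 5 means ran from -1.18 for mom-2 to -0.17 for mom-5. Of all named genes, 9.66% were called lower and 13.4% higher, so 1 of 6 (16.7%) is a count too small to set the members apart. At an unadjusted p under 0.05 in limma, 3 of the 6 were lower (cfz-2, mom-2 and egl-20) and 0 higher, beside 2546 lower and 3204 higher of all named genes. With preparation 3 left out 0 members were called lower, with preparation 2 left out 2 were, and under other centrings or scalings of the arrays 1 to 3 were. The median of the 6 means was -0.60, and that of all named genes was 0.05. Of all 14901 named genes, 7025 had a mean below 0.

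The ligand egl-20 (W08D2.1), which is made in the tail region and directs the migration of the Q neuroblasts, was at -0.42, -1.20, -0.53 and -0.63 in preparations 1 to 4. All 4 values lay below 0, and preparation 2 stood lowest while the other three lay close together. The mean was -0.70 ± 0.22 (SE, n = 4), a ratio of 0.618, with a 95% interval of -1.21 to -0.18. It did not pass the threshold over all genes in limma (adjusted p = 0.0605). At this SE a mean of 0.74 in size would have passed. Of all named genes, 12.9% had a lower mean. The gene had 2 probes, which read alike: -1.21 and -1.19 in preparation 2, -0.42 and -0.63 in preparation 3, and -0.62 and -0.64 in preparation 4. In preparation 1 only the second probe had a value.

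The ligand cwn-1 (K10B4.6), which acts with other Wnts in cell migration, was at -0.10, -0.93, -0.21 and -0.01 in preparations 1 to 4. Only preparation 2 lay clearly below 0. The mean was -0.31 ± 0.24 (SE, n = 4), and its 95% interval of -0.85 to 0.23 holds 0 (limma adjusted p = 0.367).

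The ligand cwn-2 (W01B6.1), known for its part in the outgrowth and placing of neurites, was at -0.57, -1.26, -0.44 and 0.26 in preparations 1 to 4. Preparation 2 was again lowest, and preparation 4 was the only array above 0. The mean was -0.50 ± 0.27 (SE, n = 4), with a 95% interval of -1.13 to 0.13 (limma adjusted p = 0.221). Its 2 probes read -1.21 and -1.31 in preparation 2, -0.57 and -0.30 in preparation 3, and 0.36 and 0.16 in preparation 4. In preparation 1 a single probe had a value.

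The ligand mom-2 (F38E1.7) is the Wnt that, supplied by the mother, polarises an early embryonic cell whose descendants include the endoderm. It was at -0.83, 0.20, -2.38 and -1.72 in preparations 1 to 4, a range of 2.59. Preparation 2, the lowest array for the other 3 ligands, was the highest here and the only one above 0. The mean was -1.18 ± 0.39 (SE, n = 4), a ratio of 0.44, with a 95% interval of -2.09 to -0.28. It did not pass in limma (adjusted p = 0.0663). The SD between arrays, 1.12, was larger than that of 94.5% of named genes, and a mean of 1.29 in size would have been needed. Without preparation 2, mom-2 was at -1.65 and passed (limma adjusted p = 0.0166), and without preparation 3 it was at -0.78 and did not (limma adjusted p = 0.225).

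The receptor cfz-2 (F27E11.3), a Frizzled known for roles in neuronal migration and axon growth, was at -1.20, -2.16, -1.34 and -0.64 in preparations 1 to 4. All 4 arrays lay below 0, with preparation 2 lowest and preparation 4 nearest to 0. The mean was -1.33 ± 0.28 (SE, n = 4), 2.52-fold lower than the reference, with a 95% interval of -1.97 to -0.70 and an adjusted p of 0.0116 in limma. Of all named genes, 4.30% had a lower mean. Like mom-2, cwn-1 and mom-5, cfz-2 had a single probe, so no second probe could be set beside it. Without preparation 3 the mean was the same, -1.33, but over 3 arrays it did not pass (limma adjusted p = 0.0558), so that no member was called lower there. With each of the other arrays left out, cfz-2 passed.

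The receptor mom-5 (T23D8.1), which receives the mom-2 signal in the early embryo, was at -0.37, -0.44, 0.65 and -0.51 in preparations 1 to 4. Preparations 1, 2 and 4 lay within a narrow band below 0, and preparation 3 lay apart above it. The mean was -0.17 ± 0.26 (SE, n = 4), with a 95% interval of -0.76 to 0.43 (limma adjusted p = 0.67). The mean without preparation 3 was -0.44, and the adjusted p in limma was then 0.193.

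**Figure D1:**
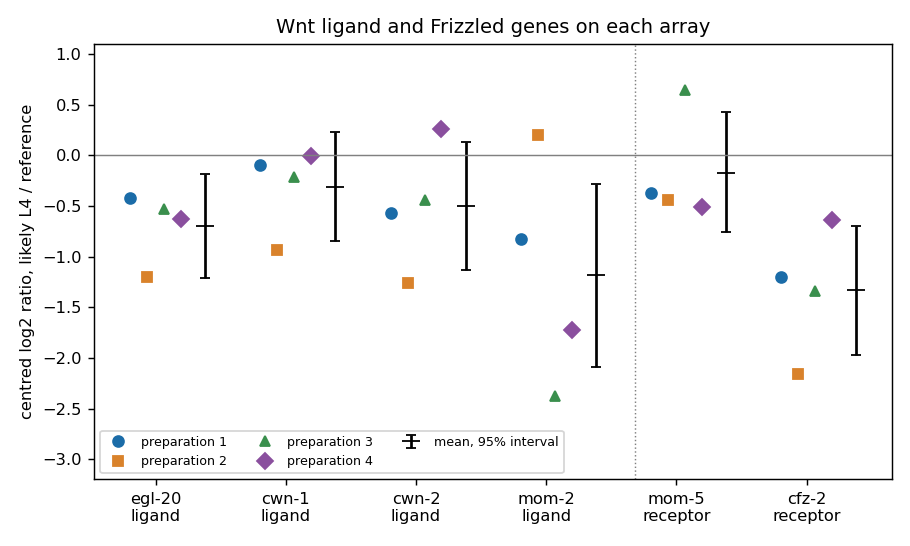
Centred log2 ratio, likely L4 over reference (vertical axis), for the 4 ligands and 2 receptors measured; each symbol is 1 array, and the bar is the mean over 4 arrays with limma's 95% interval. Only the interval of cfz-2 went with a call after adjustment; preparation 2 is lowest for 4 genes and highest for mom-2, at 0.20.

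Ligands and receptors were compared on the same array by the median of each. The ligand median was -0.49, -1.07, -0.48 and -0.32 in preparations 1 to 4, and the receptor median was -0.78, -1.30, -0.35 and -0.57. The ligand median was the higher in preparations 1, 2 and 4, by 0.29, 0.23 and 0.25, and the lower in preparation 3, by a difference of -0.13. The mean difference was 0.16 with an SD of 0.20 between arrays, and its sign was not the same on all 4 arrays. With 2 receptors, their median is the midpoint of very unlike genes. Against cfz-2 alone the ligand median was higher on all 4 arrays, by 0.32 to 1.09, and against mom-5 alone the difference ran from -1.13 to 0.19. These differences describe the members, and no test was made of them.

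**Figure D2:**
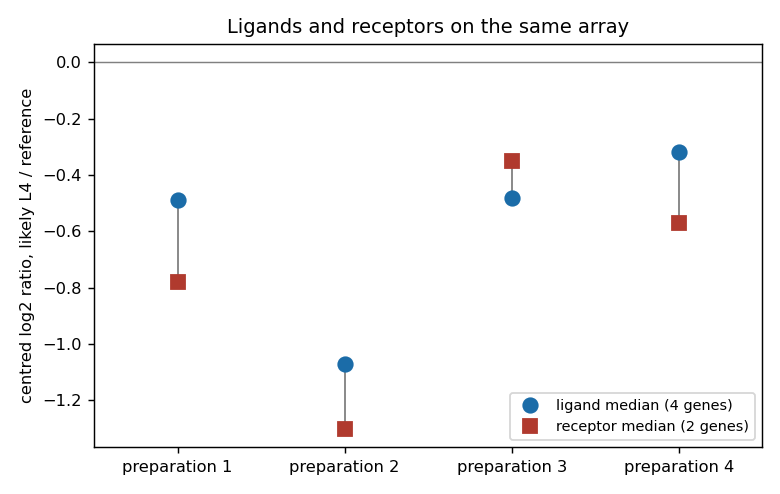
Median centred log2 ratio of the 4 ligands (circles) and the 2 receptors (squares) on each array, joined by a line within the array. The ligand median is the higher on 3 arrays, by 0.23 to 0.29, and the lower in preparation 3.

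From the lowest mean upward the order was cfz-2, mom-2, egl-20, cwn-2, cwn-1 and mom-5. No neighbours in this order kept their order on all 4 arrays. The difference between cfz-2 and mom-2 was 0.15 with an SD of 1.62, and the order held on 2 of 4 arrays. From mom-2 to egl-20 the step was 0.49 (SD 1.39), from egl-20 to cwn-2 0.19 (SD 0.48), from cwn-2 to cwn-1 0.19 (SD 0.32) and from cwn-1 to mom-5 0.14 (SD 0.64). Of the 10 pairs further apart in the order, 6 kept it on all 4 arrays. The receptor cfz-2 lay below egl-20, cwn-2, cwn-1 and mom-5 on every array. The gap was 0.83 (SD 0.13) to cwn-2 and 1.02 (SD 0.27) to cwn-1. To egl-20 it was 0.64 (SD 0.43), with a lowest gap of 0.01, and to mom-5 1.17 (SD 0.85), with a lowest gap of 0.13. The ligand egl-20 lay below cwn-1 by 0.38 (SD 0.16) and below mom-5 by 0.53 (SD 0.54) on every array. Of the 15 pairs of members, mom-2 was in none that kept its order on all 4 arrays.

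The arrays that were high or low differed between members, and they also differed between marker lists. The 12 oocyte and yolk markers had a median of -1.01, 0.13, -3.0 and -3.08 in preparations 1 to 4. On these arrays mom-2 was likewise above 0 in preparation 2 and far below 0 in preparations 3 and 4. All 12 of these markers had a mean below 0, 6 were called lower, and all 11 with 4 values were highest in preparation 2. Lowest among them were vit-5 at -3.18 and vit-2 at -2.83, both of which encode yolk protein. Of the 8 marker lists, the oocyte and yolk list was nearest to mom-2 in its deviations from its own mean, with a root mean square difference of 0.50. The sperm list followed at 0.67 and the intestinal list at 0.70, and the lists farthest away were at 1.58. The sperm list also peaked in preparation 2, with medians of 2.71, 3.39, 2.29 and 1.18 in preparations 1 to 4. The part of oocyte or sperm content in the values of mom-2 was not tested.

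The 14 neuronal markers, genes of synaptic release and neuropeptide processing, had a median of -0.54, -1.43, -1.32 and -0.57 in preparations 1 to 4. All 14 had a mean below 0, and egl-3 and ric-4 were lowest, at -1.79 and -1.59. The deviations of cfz-2 lay 0.33 from this list, with the epidermal list close behind at 0.37, body wall muscle at 0.50 and the oocyte and yolk list farthest at 1.82. For egl-20 the neuronal list was at 0.32, the early embryo list at 0.35 and the muscle list at 0.37. For cwn-1 the neuronal list was at 0.27, and the early embryo and muscle lists were both at 0.38. For cwn-2 it was the epidermal list at 0.39, with the neuronal list at 0.40. Epidermal markers had medians of 0.23, -0.91, -0.27 and 1.43 in preparations 1 to 4. For mom-5 the early embryo list was nearest at 0.55, and that list hardly moved, with medians from -0.32 to -0.09. Its lowest median was in preparation 3, where mom-5 was highest at 0.65, so it did not move with mom-5. By this measure a list that hardly moves can lie near a gene without moving with it. These are descriptions over 4 arrays that the genes and lists share, and the part of neuronal or epidermal content in the members' values was not tested.

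**Figure D3:**
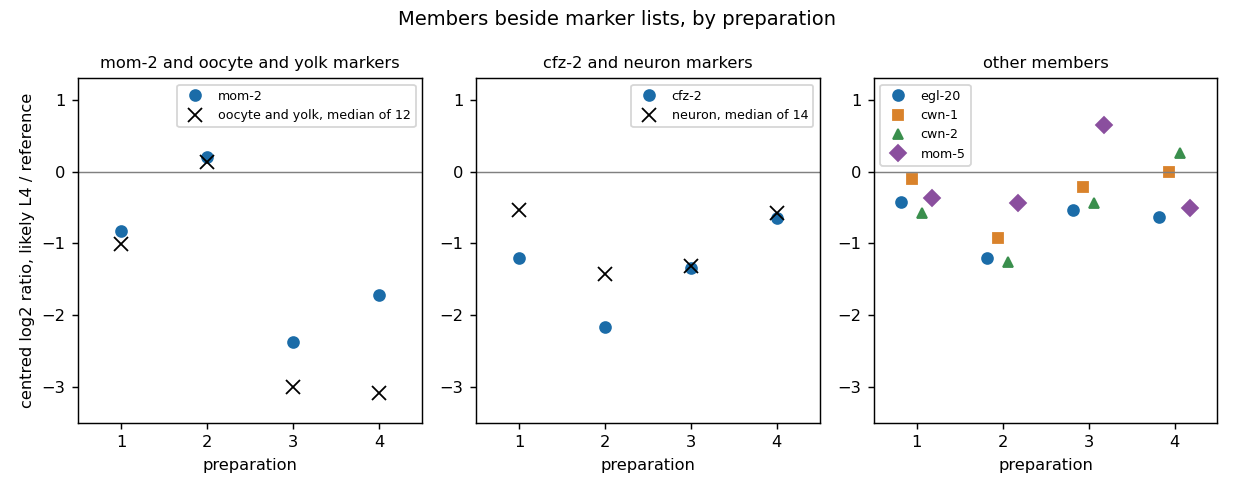
Centred log2 ratio on each array for mom-2 beside the median of 12 oocyte and yolk markers (left), cfz-2 beside the median of 14 neuronal markers (middle) and the other 4 members (right); crosses are list medians. In preparation 2 mom-2 and the oocyte and yolk median are at 0.20 and 0.13, while cfz-2 and the neuronal median are at -2.16 and -1.43.

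The genes most like the lowest ligand and the lowest receptor were found by the root mean square difference over the 4 arrays, among 14379 named genes with 4 values. Nearest to mom-2 was the oocyte gene oma-1, at -0.74, 0.35, -2.28 and -1.71, with a difference of 0.10. It is one of the 12 oocyte and yolk markers. The next were dgtr-1 at 0.15 and egg-3 at 0.16, the latter a gene of the egg-to-embryo transition. None of these 3 passed the threshold, with adjusted p from 0.0581 to 0.0878 in limma. They were chosen for values near those of mom-2, so a similar mean and p follow from the choice. Nearest to cfz-2 was ppt-1, a palmitoyl-protein thioesterase gene, at -1.18, -1.96, -1.34 and -0.68, with a difference of 0.10, followed by K02E11.5 and the innexin gene unc-7, both at 0.11. Within a difference of 0.5 there were 84 genes for mom-2 and 374 for cfz-2.

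Other genes of the pathway were few among the called. Of 41 listed, 35 were measured, 3 were lower, 0 higher and 32 did not pass. The listed genes mig-14, mtm-9, sfrp-1, plr-1, dsh-1 and lit-1 were not analysed here. The share lower, 8.57%, is close to the 9.66% over all named genes. Without preparation 1, 2 or 3, 1 gene of the list was lower. In none of the 12 other settings tried was a gene of the list called higher. At an unadjusted p under 0.05 in limma, 0 of the 35 were higher and 8 lower (22.9%), beside 21.5% and 17.1% of all named genes. The highest mean was 0.54, for the glypican gene gpn-1 (limma adjusted p = 0.153). The median of the 35 means was -0.35, and 29 of the 35 lay below 0.

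Of the genes that release and recycle Wnt, none was called. Of 7 measured, 0 passed in limma in either direction, also at an unadjusted p under 0.05, and the means ran from -0.50 to 0.40 with a median of -0.19. The lowest, mtm-3, a myotubularin phosphatase gene, was at -0.43, -0.10, -0.62 and -0.85 (mean -0.50 ± 0.22, SE, n = 4, limma adjusted p = 0.14). The retromer gene vps-35, needed to recycle the Wnt carrier, was at -0.01, and mom-1, the Porcupine gene that acylates Wnt, was at -0.19 over 3 arrays.

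Among other receptors and surface or extracellular proteins, 1 of 7 was lower (14.3%), beside 9.66% of all named genes. This was vang-1, the worm's Van Gogh planar polarity gene, at -1.11, -1.77, -1.47 and -0.42 in preparations 1 to 4. All 4 values lay below 0, with a mean of -1.19 ± 0.27 (SE, n = 4) and an adjusted p of 0.0155 in limma. It did not pass without preparation 2 or without preparation 3 (limma adjusted p = 0.0528 and 0.0719). The Ror receptor gene cam-1, which binds Wnts, was at -0.69 (limma adjusted p = 0.0954), and the Ryk receptor gene lin-18 was at -0.06. The Flamingo cadherin gene fmi-1 was at -1.77, -2.61, -0.32 and 0.03, low in preparations 1 and 2 and near 0 in the others. Its mean was -1.17 (limma adjusted p = 0.0854). At an unadjusted p under 0.05 in limma, 3 of the 7 were lower (vang-1, cam-1 and fmi-1, 42.9%) and 0 higher. Of all named genes, 17.1% were lower and 21.5% higher at that threshold.

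Genes of the signal-receiving cytoplasm and nucleus had no member past the threshold in limma. At an unadjusted p under 0.05 in limma, 1 of 2 Dishevelled genes was lower (dsh-2). The count was 2 of 7 for the destruction complex and kinase genes (apr-1 and axl-1). For the beta-catenin and TCF genes it was 0 of 5, beside 17.1% of all named genes. The Dishevelled genes dsh-2 and mig-5 were at -0.74 and -0.31, and dsh-2 read -0.99, 0.16, -1.67 and -0.49 in preparations 1 to 4 (limma adjusted p = 0.119). In the destruction complex and kinase group, 0 of 7 passed, with the APC gene apr-1 lowest at -0.82 (limma adjusted p = 0.0629), the Axin genes pry-1 and axl-1 at -0.21 and -0.57, and the kinase genes gsk-3 and kin-19 at -0.44 and 0.00. Of the beta-catenin and TCF genes, 0 of 5 passed. Their means were 0.23 for bar-1, the canonical beta-catenin, 0.02 for the TCF gene pop-1, -0.20 for sys-1, -0.40 for hmp-2 and -0.56 for wrm-1.

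Among Hox and other genes listed as targets, 2 of 7 were lower, beside 9.66% of all named genes, and all 7 means lay below 0, beside 47.1% of all named genes. The anterior Hox gene ceh-13 was at -1.05, -1.47, -0.86 and -0.81, a narrow range well below 0, with a mean of -1.05 ± 0.22 (SE, n = 4) and an adjusted p of 0.0121 in limma. The epidermal GATA factor gene elt-3 was at -0.89, -0.75, -1.75 and -0.54, with a mean of -0.98 ± 0.26 and an adjusted p of 0.0285 in limma. Without preparation 1, 2 or 3 elt-3 did not pass (limma adjusted p = 0.0815, 0.0526 and 0.0753), and ceh-13 did not pass without preparation 1 (0.0558). The Hox genes mab-5, the known target of egl-20 in Q neuroblasts, lin-39 and egl-5 were at -0.49, -0.44 and -0.43 and did not pass.

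**Figure D4:**
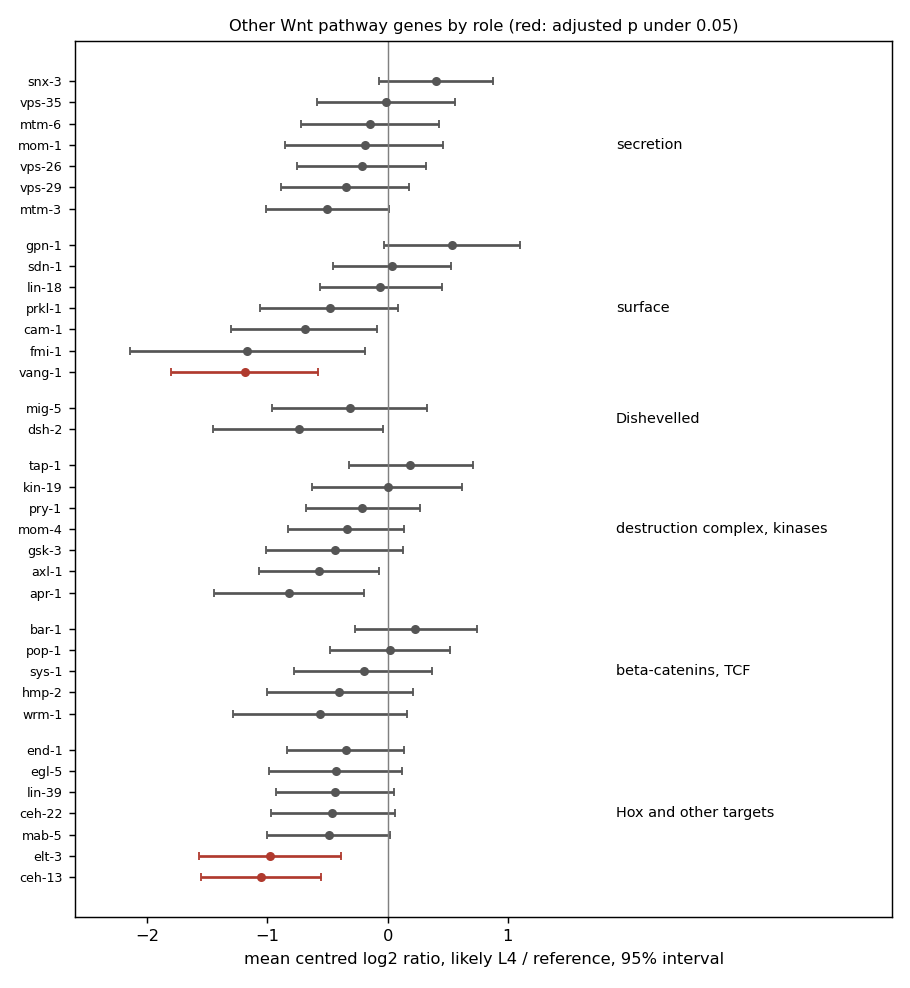
Mean centred log2 ratio (horizontal axis) with limma's 95% interval for the 35 other Wnt pathway genes, grouped by role; red marks the 3 genes called lower. These are vang-1, ceh-13 and elt-3, at -1.19, -1.05 and -0.98.

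Over the 34 pathway genes with 4 values, preparation 2 gave the lowest value for 35.3% and the highest for 41.2%, beside 29.7% and 28.0% of all named genes. The counts by role were picked out after their values were seen. Preparation 2 gave the lowest of the 4 values for 4 of 6 members, for 6 of 7 Hox and other target genes and for 4 of 7 surface genes. The same preparation gave the highest value for mom-2, for both Dishevelled genes, for 4 of 5 beta-catenin and TCF genes, for 4 of 7 destruction complex and kinase genes and for 4 of 6 secretion genes. Preparation 3 gave the lowest value for 41.2% of the pathway genes and 33.8% of all named genes. For 11 of 11 oocyte and yolk markers preparation 2 was the highest, and for 8 of 13 neuronal and 8 of 10 epidermal markers it was the lowest. Each preparation was 1 array, so these splits have no replicate and were not tested.

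**Figure D5:**
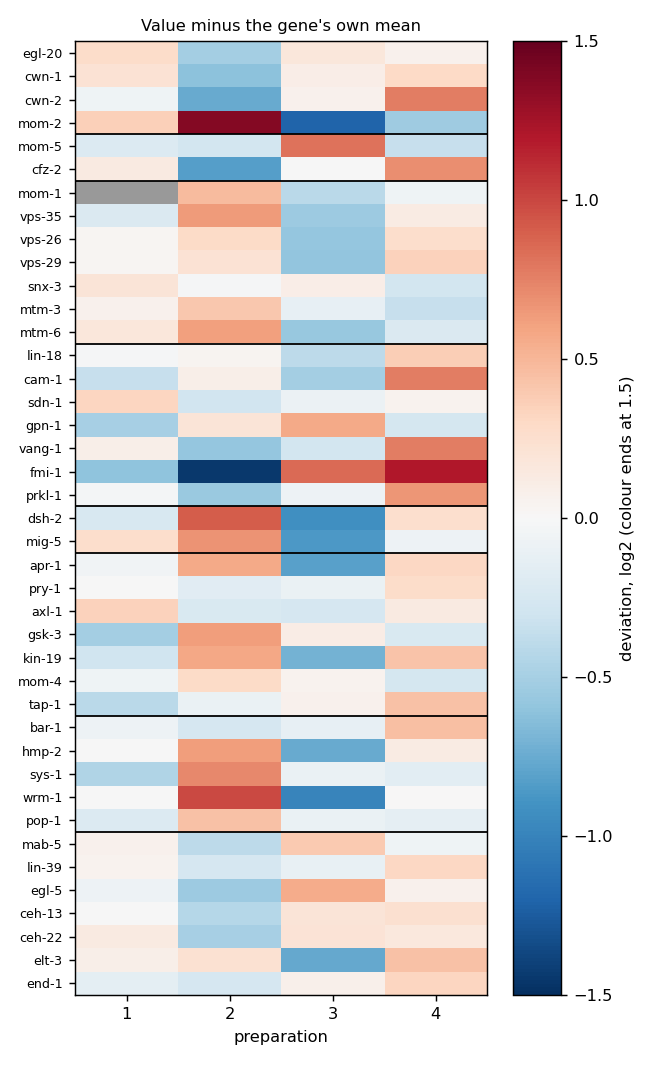
Each value minus the gene's own mean over the arrays, in log2 units, for the 6 members (top 6 rows, ligands then receptors) and 35 pathway genes in role order, with lines between roles; grey is a missing value and colours end at 1.5. In preparation 2 mom-2, the Dishevelled genes and wrm-1 are above their mean, while the other ligands and cfz-2 are below it.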

How the data were processed

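The authors deposited 1 value per probe and array. No label or header names its unit, the scanner, the dyes, the background correction or the normalization. A log2 scale for the deposited values was inferred from their steps: taken as powers of 2, 100% of the values below 0 were whole multiples of 0.001, within 0.02 of a step. The column medians as deposited were -0.047, 0.007, -0.1 and -0.042 in preparations 1 to 4. Whether the arrays had been centred and the direction of the ratio stay unknown. Here each array was centred on its median. Of the 21632 probes, 16450 named 1 gene, 247 several and 4935 none, and 16360 matched the RefSeq table of assembly WBcel235, used for names only. Probes of a gene were averaged. Features with a value on at least 3 arrays (19911) were fitted in limma 3.58.1 in R 4.3.3 (lmFit, eBayes), the mean tested against 0, two-sided, with Benjamini-Hochberg adjustment at 0.05 over all features. Prior degrees of freedom were 5.15. The common reference counts as 1 sample and its own spread is left out. The fit was run on data simulated from its own fitted variances, with independent arrays. Such data cannot show how the fit handles shifts shared by many genes or arrays of unequal spread. Tables and figures used Python 3.11.15, pandas 2.3.3 and matplotlib 3.10.9.

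The members and lists were chosen with earlier results of these data known. Named genes are all measured members, every called gene of each pathway role or else its largest mean, the 3 nearest patterns of 1 ligand and 1 receptor, and up to 2 genes of a marker list. Other pathway genes with values were named after their values were seen. The number of arrays, 4, limits the precision.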

Additional observations from a re-analysis of the deposited data

Results flagged for a closer look

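Of 16 results examined for an array far from the others, 2 stood out, where about 1 in 20 would by chance. The receptor mom-5 was at 0.65 in preparation 3, and its gap to the next array was 0.876 of its range. The ligand minus receptor difference was -0.13 in preparation 3, with a gap of 0.866 of its range, and mom-5 is 1 of the 2 receptors behind it.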

How the results depend on the processing

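In 12 other settings each of the 6 members kept a mean below 0, and 0 members were called higher. The count of members called lower, 1, was 2 with values as deposited and with arrays scaled to 1 median absolute deviation (egl-20 joined, limma adjusted p = 0.0463 and 0.0477), and 3 with quantile normalization (egl-20 and mom-2, 0.045 and 0.0444). Leaving out 1 array in turn gave 0 to 2 members lower, 1 to 4 pathway genes lower, and 2374 to 3647 features called where all 4 arrays gave 4319, with 1380 to 2162 higher (2373 with all arrays) and 994 to 1485 lower (1946 with all arrays). The lowest of these ranges over features came without preparation 3. In those fits a feature needed a value on 2 of the 3 arrays. cfz-2 passed in 11 of the 12 settings, with adjusted p from 0.00571 to 0.0558. egl-20 passed in 3 (0.045 to 0.177) and mom-2 in 2 (0.0166 to 0.225), while cwn-1, cwn-2 and mom-5 passed in 0. apr-1 passed with scaled arrays and with quantile normalization (0.0431 and 0.0397). The ligand minus receptor difference ran from 0.12 to 0.26. Centring on 12 housekeeping genes, whose medians lay at -0.10, 0.24, -0.35 and 0.32 on the centred scale, gave 3068 calls, with 1 member and 3 pathway genes lower. The planned random block on a code shared by the titles of preparations 1 and 4 was not run, as 3 codes over 4 arrays allow no estimate. No paired analysis was possible because the arrays form a single group.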
